A study of Mus musculus with 6 samples.

Results

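Cell cycle and DNA replication genes were followed in GFP-sorted pancreas cells of mice with and without floxed p120. The set was a list of 42 genes named by their function. A gene was used where a row of the deposited table named it alone, and where several rows did, the one of highest average over the arrays stood for it. This gave 40 members of the 20259 genes measured. They were 19 genes of S phase and its onset, 18 of 20 mitotic genes and 3 D cyclins. No row used here names Ccnb1, and the 1 row for Foxm1 also names another gene, so the expression of neither is analysed here.

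The series holds 6 expression arrays of mouse pancreas, 1 per sample. The knockout group (KO) had 3 samples of genotype KCiMist1G; p120f/f, and the wild-type group (WT) had 3 of genotype KCiMist1G; p120wt/wt. The labels do not spell out the alleles in KCiMist1G, which both groups carry. In both groups tamoxifen at 7 to 9 weeks of age induced Cre recombination, and GFP-positive cells were sorted 2 weeks later. Mist1, now named Bhlha15, is a transcription factor of pancreatic acinar cells, the enzyme-secreting cells of the gland. The samples are labelled biological replicates, and the labels do not say whether each was 1 animal or a pool. A p-value here covers only the spread among these samples, part of which may be technical.

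Before a cell divides it loads the MCM helicase onto replication origins, copies its DNA in S phase, and then separates the copies in mitosis. D and E cyclins with their kinases release E2F transcription factors, which drive the S phase genes. Mitotic genes peak later and are controlled largely by the DREAM and B-MYB-MuvB complexes and FOXM1 through a promoter element called CHR, often beside CCAAT boxes bound by NF-Y. Mature acinar cells divide rarely, and transcripts of these genes mark dividing cells of any type. In such bulk samples fewer dividing cells and less RNA per dividing cell cannot be told apart.

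The S phase and mitotic members differed in what their promoters hold. RefSeq promoter sequences, from 250 bases before to 50 after the start site, were given for 16 of 19 S phase genes (17 promoters), 16 of 20 mitotic genes (16 promoters) and 1 of 3 D cyclins. The E2F motif was searched as TTCCCGC with its spelling variants TTCGCGC, further TTGCCGC and finally TTGGCGC. The CHR was searched as TTTGAA and the NF-Y site as CCAAT, each motif on both strands. An E2F match stood in 10 of 17 S phase promoters (58.8%), 3 of 16 mitotic promoters (18.8%) and 9.57% of all 32851 promoters. A CHR match stood in 11 of 16 mitotic promoters (68.8%), 2 of 17 S phase promoters (11.8%) and 17.9% of all promoters. With windows that ended 30 bases after the start, the CHR count was 8 of 16 mitotic promoters, against 17.2% of all. CCAAT stood in 14 of 16 mitotic promoters (87.5%), 11 of 17 S phase promoters (64.7%) and 37.4% of all promoters. All 11 mitotic promoters with CHR also held CCAAT, a pairing found in 6.95% of all promoters. An E2F match overlapped a CCAAT match in 1 S phase promoter, that of Mcm7, and in 1 mitotic promoter, that of Ccnb1. A match is a description of the letters, not a bound site.

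**Figure D1:**
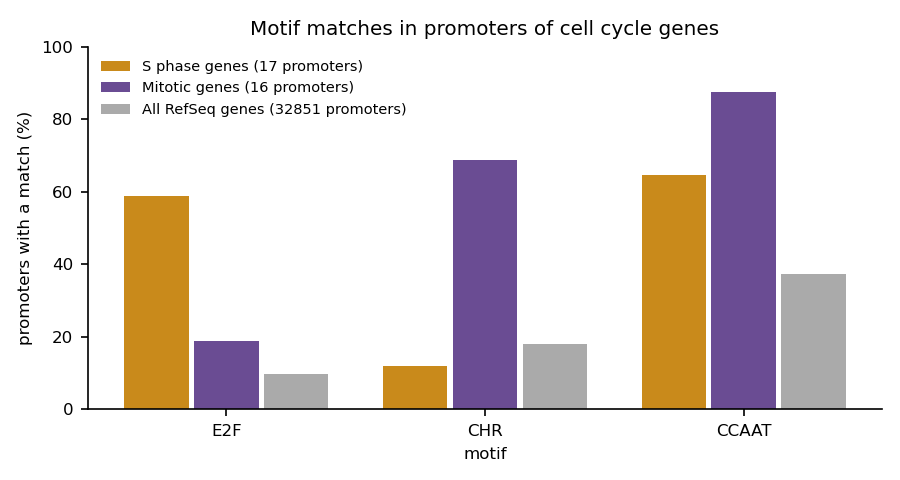
Share of promoters (%) with at least 1 match to the E2F, CHR and CCAAT motifs, for S phase members (17 promoters), mitotic members (16 promoters) and all RefSeq promoters in the table (32851). E2F matches are most frequent in S phase promoters (58.8%) and CHR matches in mitotic promoters (68.8%).

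The promoters below show these arrangements, with 280 bases each from 250 before to 30 after the start site, and matches in capitals. Pcna, Mcm2 and Cdc20 were set by the rule for named genes, while Rrm1 and Mki67 were picked after the matches were seen, as examples of E2F and of CHR with CCAAT. The rule also set the promoter of Ccnb1, which is not printed. It has 1 E2F match, 0 CHR matches and 2 CCAAT matches. Pcna has 1 CCAAT match, Mcm2 has 1 CCAAT and 1 CHR match, and Rrm1 has 1 E2F match between 2 CCAAT matches. Cdc20 has 1 CHR match between 2 CCAAT matches. Mki67 has 3 CCAAT matches, then 2 CHR matches and 1 E2F match.
Pcna, GRCm38.p6 chr2:132253151-132253430, minus strand: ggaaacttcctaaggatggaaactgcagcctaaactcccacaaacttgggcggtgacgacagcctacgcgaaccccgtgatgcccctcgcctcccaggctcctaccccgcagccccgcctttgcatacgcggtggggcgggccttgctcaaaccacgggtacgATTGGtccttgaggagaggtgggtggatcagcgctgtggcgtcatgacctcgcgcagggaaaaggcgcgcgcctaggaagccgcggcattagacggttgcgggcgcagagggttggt
Mcm2, GRCm38.p6 chr6:88898751-88899030, minus strand: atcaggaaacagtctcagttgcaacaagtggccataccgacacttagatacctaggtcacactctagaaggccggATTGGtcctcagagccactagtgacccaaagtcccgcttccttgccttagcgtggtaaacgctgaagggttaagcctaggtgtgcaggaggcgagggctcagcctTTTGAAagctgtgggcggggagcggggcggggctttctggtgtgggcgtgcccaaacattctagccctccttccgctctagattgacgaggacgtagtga
Rrm1, GRCm38.p6 chr7:102441445-102441724, plus strand: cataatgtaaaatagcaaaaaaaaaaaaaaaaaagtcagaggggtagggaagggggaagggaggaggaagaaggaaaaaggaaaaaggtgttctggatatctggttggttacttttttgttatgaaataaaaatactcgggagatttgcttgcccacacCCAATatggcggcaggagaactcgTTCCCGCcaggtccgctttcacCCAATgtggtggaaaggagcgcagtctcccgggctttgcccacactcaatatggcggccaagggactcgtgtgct
Cdc20, GRCm38.p6 chr4:118437314-118437593, minus strand: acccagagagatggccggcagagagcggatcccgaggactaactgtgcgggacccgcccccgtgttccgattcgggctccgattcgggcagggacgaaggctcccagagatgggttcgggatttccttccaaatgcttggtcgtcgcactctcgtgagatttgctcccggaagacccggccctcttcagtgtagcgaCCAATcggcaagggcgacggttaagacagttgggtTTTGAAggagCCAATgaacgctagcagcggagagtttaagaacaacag
Mki67, GRCm38.p6 chr7:135716350-135716629, minus strand: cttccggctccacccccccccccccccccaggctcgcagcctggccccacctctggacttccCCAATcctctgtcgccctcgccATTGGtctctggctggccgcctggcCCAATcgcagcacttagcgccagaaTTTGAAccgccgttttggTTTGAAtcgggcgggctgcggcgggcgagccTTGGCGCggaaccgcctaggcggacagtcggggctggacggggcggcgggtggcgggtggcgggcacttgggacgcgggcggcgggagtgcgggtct

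The arrays were first checked against their labels. Values are RMA log2 expression, and levels are compared between arrays for 1 gene or list, not between genes. Ctnnd1, which encodes p120, had log2 values of 5.61, 6.61 and 6.38 on the KO arrays and 5.87, 6.81 and 6.44 on the WT arrays. Its single row did not separate the groups, and whether it reads the deleted part is not given in the sources used here, so every direction below is that of the labels. Xist was above 9 on KO array 3 and WT arrays 1 and 2 and below 4 on the other arrays, so the sexes were not balanced. The acinar marker Bhlha15 was at 8.61, 9.93 and 10.06 on the KO arrays and 9.66, 9.60 and 9.72 on the WT arrays. The leukocyte marker Ptprc was at 9.92, 8.61 and 8.38 on the KO arrays and 9.44, 9.17 and 9.60 on the WT arrays.

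No member passed the test between KO and WT. Across the 20259 genes limma called 0 at an adjusted p under 0.05, so percent called was 0. The smallest adjusted p of any gene was 0.241. At an unadjusted p under 0.05, 1 of 40 members had a difference below 0 (Pcna) and 0 a difference above 0, against 1.19% and 2.31% of all genes (3.49% in either direction). Of the 40 members, 34 had a KO minus WT difference below 0 (16 of 19 S phase, 15 of 18 mitotic and 3 of 3 D cyclins), against 38.3% of all genes. This background moves with level and scaling: among genes above the median level 50.1% had a difference below 0, against 25 of the 30 members there, and after a further quantile normalization 46.4% did, against 34 of 40 members. The median difference was -0.11 for S phase members and -0.12 for mitotic members, against 0.055 over all genes. The S phase and mitotic medians lay 0.010 apart, less than the spread between arrays. Member differences ran from -0.53 for Pcna to 0.24 for Cdc20.

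**Figure D2:**
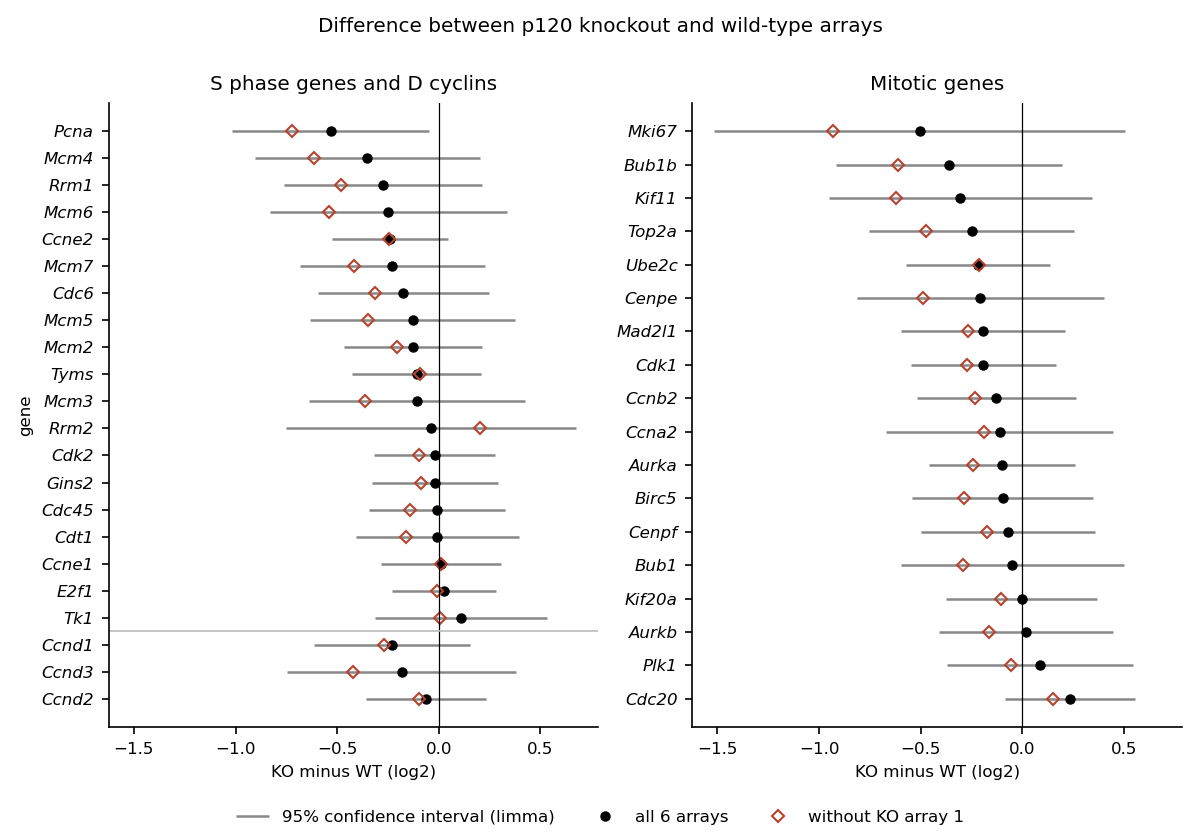
KO minus WT difference in log2 expression (x axis) for each measured member (y axis), S phase genes and D cyclins on the left and mitotic genes on the right. Black points are the limma estimates over 6 arrays, grey lines their 95% confidence intervals, and open diamonds the estimates without KO array 1. The interval of Pcna (-1.02 to -0.047) is the only one that leaves out 0.

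For these lists the arrays within a group differed more than the group means did. The mean over the 18 mitotic members was 6.23, 5.72 and 5.72 on KO arrays 1, 2 and 3 and 5.76, 6.10 and 6.21 on WT arrays 1, 2 and 3. The mean over the 19 S phase members was 6.40, 6.10 and 6.02 on the KO arrays and 6.19, 6.27 and 6.45 on the WT arrays. In both, KO array 1 lay with WT array 3 at the top, and KO arrays 2 and 3 lay at the bottom. KO array 1 was above both other KO arrays for 35 of 40 members, where 28.6% of all genes were. WT array 3 was the highest WT array for 30 of 40 members (30.8% of all genes), and WT array 1 the lowest for 29 of 40 (28.8% of all genes). WT array 1 was the lowest WT array for 16 of 18 mitotic and 12 of 19 S phase members, a difference that was not tested. This place was not particular to mitotic genes. Over lists of cell type markers it ran from 1 of 20 leukocyte markers to 8 of 10 fibroblast and 5 of 6 duct markers.

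**Figure D3:**
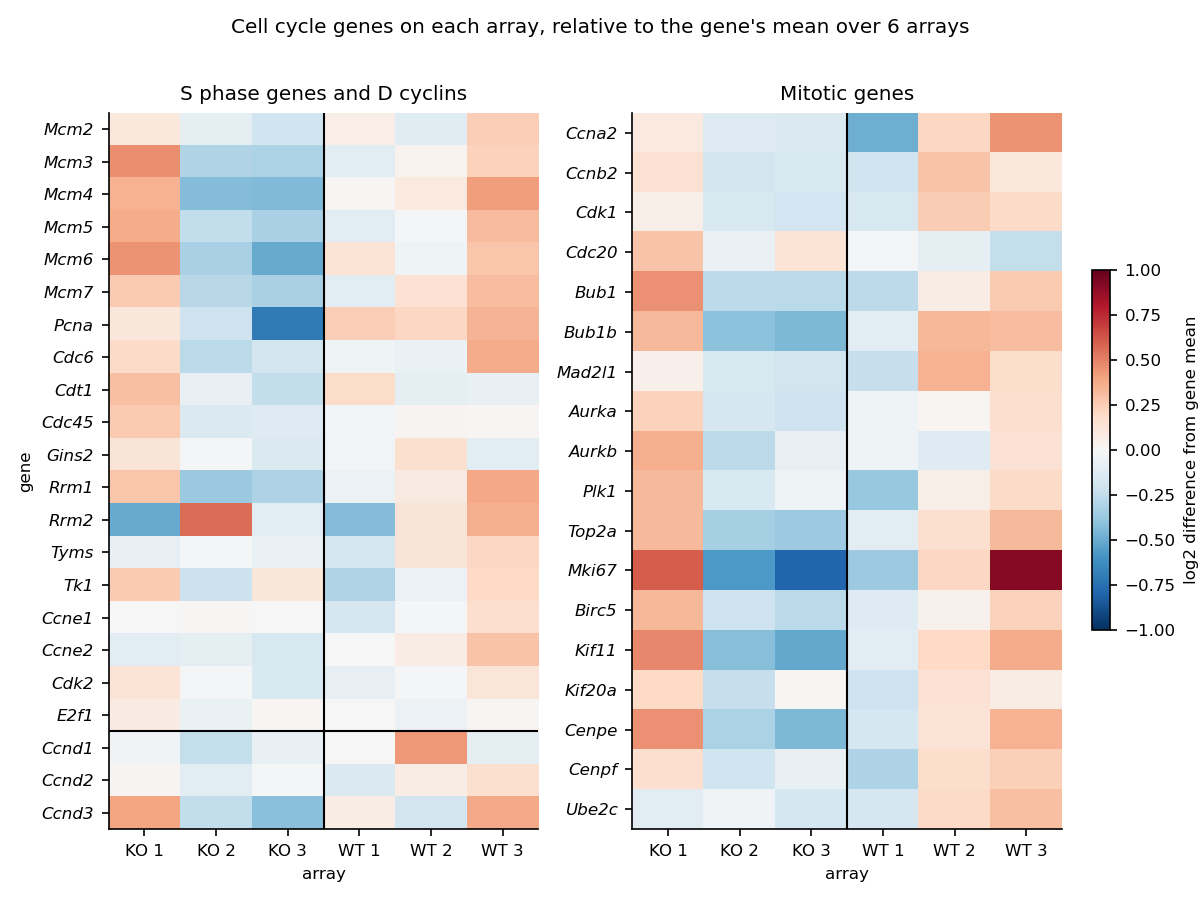
Log2 expression of each measured member on each array, as the difference from the gene's own mean over the 6 arrays (colour, cut at 1 in either direction). KO arrays are on the left and WT arrays on the right of the vertical line. KO array 1 and WT array 3 are mostly red and KO arrays 2 and 3 mostly blue, and Mki67 spans the widest range, from 7.42 to 9.12.

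Pcna, the sliding clamp that holds DNA polymerase on its template, had the smallest p of the members. Its log2 values were 10.30, 9.98 and 9.48 on the KO arrays and 10.43, 10.39 and 10.52 on the WT arrays. All 3 KO values lay below all WT values, and KO array 3 was the lowest. The difference was -0.53 (SE 0.21, 95% confidence interval -1.02 to -0.047), with limma's unadjusted p of 0.0355 and an adjusted p of 0.907. The exact permutation p was 0.1, the smallest that 3 arrays against 3 allow. Without KO array 3 the difference was -0.31 and without KO array 1 it was -0.72. The other row that names Pcna differed by -0.32.

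Ccne2, one of the E cyclins that activate Cdk2 at the start of S phase, was the other member with no overlap between groups. It had 5.32, 5.34 and 5.28 on the KO arrays and 5.44, 5.50 and 5.72 on the WT arrays. The KO arrays were tightly grouped just under the lowest WT array. The difference was -0.24 (SE 0.12) with limma's adjusted p of 0.907, and it was -0.16 without WT array 3. Of all genes, 2.47% had every KO array below every WT array, against these 2 of 40 members. Its paralog Ccne1 differed by 0.011 (SE 0.13), with KO arrays from 5.48 to 5.49 inside the WT range of 5.31 to 5.65. Their kinase Cdk2 differed by -0.021 and E2f1, the transcription factor of the S phase genes, by 0.026 (SE 0.11, 95% confidence interval -0.23 to 0.28).

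The 6 subunits of the MCM helicase, which unwinds DNA at the fork, all had differences below 0. Mcm4 had 7.52, 6.74 and 6.73 on the KO arrays and 7.19, 7.27 and 7.59 on the WT arrays. KO arrays 2 and 3 lay under every WT array, while KO array 1 lay within them. Its difference was -0.35 (SE 0.24), with a limma adjusted p of 0.907.
Mcm7 had 8.21, 7.67 and 7.62 on the KO arrays and 7.84, 8.09 and 8.25 on the WT arrays, a difference of -0.23 (SE 0.19). Its 2 other rows differed by -0.16 and -0.11. Mcm2 had 6.54, 6.34 and 6.24 on the KO arrays and 6.51, 6.31 and 6.68 on the WT arrays, so the groups overlapped almost fully (-0.13, SE 0.14). Mcm6 differed by -0.25, Mcm5 by -0.13 and Mcm3 by -0.11. For Mcm3, Mcm5 and Mcm6 KO array 1 was the highest of all 6 arrays and KO array 3 the lowest. Without KO array 1 the MCM differences ran from -0.61 (Mcm4) to -0.21 (Mcm2).

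The factors that load and start the helicase also overlapped between groups. Cdc6, which loads MCM onto origins, differed by -0.17 (SE 0.18), and its loading partner Cdt1 by -0.0071 (SE 0.17). Cdc45 and Gins2, which join MCM to form the active helicase, differed by -0.010 and -0.019. For Cdc6, Cdt1, Cdc45 and Gins2 KO array 1 was the highest KO array, at 5.02, 6.68, 5.46 and 5.48.

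Genes of nucleotide supply were not uniform. Rrm1, the large subunit of ribonucleotide reductase, had 7.25, 6.60 and 6.66 on the KO arrays and 6.91, 7.06 and 7.36 on the WT arrays. As with Mcm4, KO arrays 2 and 3 were the lowest of the 6, and the difference was -0.27 (SE 0.21). Rrm2, the small subunit of the same enzyme, had the opposite order among the KO arrays, with 3.56, 4.62 and 3.94 there and 3.63, 4.19 and 4.42 on the WT arrays. Its difference of -0.038 (SE 0.30) was far inside the spread. Rrm2 was dim, the only member not above the 25th percentile of level over all genes. Tyms, which makes thymidylate, differed by -0.11 (SE 0.14) and Tk1, which salvages thymidine, by 0.11 (SE 0.18).

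Among mitotic genes, Mki67, which encodes the proliferation antigen Ki-67 that coats mitotic chromosomes, had the widest spread. It had 8.81, 7.63 and 7.42 on the KO arrays and 7.85, 8.41 and 9.12 on the WT arrays. KO array 1 stood above WT arrays 1 and 2, and KO arrays 2 and 3 below all WT arrays. The means were 7.96 ± 0.75 in KO and 8.46 ± 0.64 in WT (SD, n = 3 each), a difference of -0.50 (SE 0.43, 95% confidence interval -1.51 to 0.51) with a limma adjusted p of 0.907. It was -0.93 without KO array 1 and -0.18 without WT array 3.

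Top2a, the topoisomerase that untangles sister chromatids, had 6.27, 5.62 and 5.58 on the KO arrays and 5.84, 6.10 and 6.27 on the WT arrays. KO array 1 and WT array 3 had the same value to 2 decimals, and the difference was -0.25 (SE 0.22). Cdk1, the kinase that drives entry into mitosis, had 5.70, 5.48 and 5.45 on the KO arrays and 5.48, 5.89 and 5.83 on the WT arrays (-0.19, SE 0.15). Here WT array 1 was level with KO arrays 2 and 3. The cyclins that bind it, Ccna2 and Ccnb2, differed by -0.11 (SE 0.24) and -0.13 (SE 0.17), and both were lowest on WT array 1, at 5.49 and 6.31.

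The spindle checkpoint genes, whose proteins delay chromosome separation until all kinetochores are attached, overlapped between groups. Bub1b had 5.88, 5.15 and 5.11 on the KO arrays and 5.45, 5.89 and 5.87 on the WT arrays. KO array 1 reached the top of the WT range and the other KO arrays lay under every WT array. Its difference was -0.36 (SE 0.24), against -0.050 (SE 0.23) for the related kinase Bub1 and -0.19 (SE 0.17) for Mad2l1. Limma's adjusted p was 0.907 or above for each of these genes.

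The anaphase-promoting complex, the ubiquitin ligase that ends mitosis, was represented by its activator Cdc20 and its ubiquitin-conjugating enzyme Ube2c, which differed in sign. Cdc20 had 7.36, 7.01 and 7.21 on the KO arrays and 7.05, 6.98 and 6.83 on the WT arrays. It was the 1 member of the set whose WT array 3 was the lowest of the 6. Its difference of 0.24 (SE 0.14, 95% confidence interval -0.08 to 0.56) stayed above 0 with each array left out (0.15 to 0.33), and the adjusted p was 0.907. Its other row differed by 0.030.
Ube2c had 6.28, 6.37 and 6.22 on the KO arrays and 6.23, 6.59 and 6.70 on the WT arrays, a difference of -0.22 (SE 0.15).

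Mitotic kinases, motors and kinetochore genes completed the group. Aurkb, the kinase of the chromosomal passenger complex, and Plk1, a kinase of mitotic entry and exit, had differences of 0.017 (SE 0.18) and 0.086 (SE 0.19). Birc5, which encodes survivin of the same passenger complex, differed by -0.096, and the spindle pole kinase Aurka by -0.10. Kif11, the motor that pushes the spindle poles apart, differed by -0.31 (SE 0.28) and the kinetochore motor Cenpe by -0.21 (SE 0.26). Without KO array 1 these were -0.62 and -0.49. Cenpf differed by -0.072 and Kif20a, a motor of cytokinesis, by -0.0040.

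The D cyclins, which carry growth signals to Cdk4 and Cdk6 in G1, did not share the array pattern uniformly. Ccnd1 had 7.03, 6.83 and 6.99 on the KO arrays and 7.07, 7.50 and 6.97 on the WT arrays, with WT array 2 standing alone. Its difference of -0.23 (SE 0.16) was -0.070 without WT array 2. On that array the means of the fibroblast, islet, duct and endothelial marker lists were also highest, and a link was not tested. Ccnd2 had 8.20, 8.06 and 8.15 on the KO arrays and 8.03, 8.24 and 8.33 on the WT arrays (-0.064, SE 0.13). Ccnd3 had 7.77, 7.13 and 6.97 on the KO arrays and 7.46, 7.20 and 7.76 on the WT arrays (-0.18, SE 0.24). Of the D cyclins, Ccnd3 was thus the one that resembled Mcm4 and Rrm1, highest on KO array 1 and WT array 3.

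Other cell cycle genes, outside the 42, gave 0 adjusted calls as well. Among 44 further replication genes 29 had a difference below 0 (median -0.070), against 38.3% of all genes. Of genes above the median level 50.1% did. Limma's unadjusted p was under 0.05 for 1 of the 44, against 3.49% of all genes in either direction. That gene was Nasp, a histone chaperone, at 6.20, 6.03 and 5.75 on the KO arrays and 6.47, 6.18 and 6.51 on the WT arrays (-0.39, SE 0.16, limma adjusted p = 0.907). Orc6, a subunit of the origin recognition complex, differed by -0.32 and the clamp loader subunit Rfc2 by 0.31. Dscc1 differed by -0.39, Rpa3 by 0.30 and Gmnn, which encodes the Cdt1 inhibitor geminin, by 0.27. Every KO array was above every WT array for Rpa3, 1 of the 44 genes, and for 6.21% of all genes.

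Among 47 further mitotic genes 36 had a difference below 0 (median -0.12), against 38.3% of all genes. Limma's unadjusted p was under 0.05 for 0 of the 47, against 3.49% of all genes in either direction. The condensin subunits Smc2 and Smc4, which compact chromosomes, differed by -0.42 (SE 0.23) and -0.32 (SE 0.19), and Cks2 by -0.25. Of the genes with a difference above 0, those of smallest p were Spc24, Cdca8 and Pttg1, with differences of 0.16, 0.12 and 0.0995. KO array 1 was above both other KO arrays for 39 of these 47 genes and for 29 of the 44 replication genes, against 28.6% of all genes.

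The 24 measured G1 kinases, inhibitors and pocket proteins were split, with 13 below 0 and a median of -0.018. The share below 0 was 38.3% over all genes and 50.1% over genes above the median level, where 18 of the 24 lay. Cdkn1b, which encodes the kinase inhibitor p27, had 8.54, 8.23 and 8.54 on the KO arrays and 8.57, 8.59 and 8.86 on the WT arrays. Its groups did not overlap, by a narrow margin, and the difference was -0.23 (SE 0.15). Lin9, a subunit of the MuvB complex, did not overlap in the other direction, with 4.35, 4.31 and 4.41 on the KO arrays and 4.13, 4.21 and 4.28 on the WT arrays. Of all genes, 2.47% had every KO array below every WT array and 6.21% had every KO array above. Cdkn2d differed by -0.35 and Rb1 by -0.19, while Cdkn2b, the gene of the Cdk4 and Cdk6 inhibitor p15, differed by 0.28, Lin9 by 0.15 and E2f5 by 0.13. None of these passed limma's adjusted threshold, with 0.907 for each.

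Leukocyte markers moved with the cell cycle genes on the KO arrays. The mean over 20 leukocyte markers was 8.30, 7.08 and 7.14 on the KO arrays and 7.90, 7.98 and 7.82 on the WT arrays. A difference below 0 was found for 20 of 20, against 38.3% of all genes and 50.1% of genes above the median level. KO array 1, high in both S phase and mitotic genes, was thus the highest in leukocyte markers, and KO arrays 2 and 3 were the lowest in both. The 11 acinar markers ran the other way among the KO arrays, at 10.34, 11.05 and 11.08, and stood at 10.81, 10.87 and 10.91 on the WT arrays. On the WT arrays the leukocyte mean spanned 7.82 to 7.98 while the mitotic mean spanned 5.76 to 6.21. Single leukocyte markers moved more than their mean there, in unlike directions. On WT arrays 1, 2 and 3 Adgre1 had 6.76, 7.95 and 6.69 and Cd3e had 8.57, 7.88 and 8.74.

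The list means of the other cell types had KO array 1 as the lowest KO array, and several lists also had differences below 0. The 4 erythroid markers measured had means of 4.56, 5.67 and 5.42 on the KO arrays and 5.18, 5.57 and 7.19 on the WT arrays. Car1, Slc4a1 and Klf1 were highest on WT array 3 (7.57, 8.39 and 5.61) and Alas2 on WT array 2 (7.23). WT array 3 was also highest for Mki67 and for the S phase mean (6.45, against 6.40 on KO array 1). The mitotic mean was 6.21 on WT array 3 and 6.23 on KO array 1. No row used here names the globin genes Hba-a1 and Hbb-bt. The 10 fibroblast markers had means of 5.92, 6.28 and 6.15 on the KO arrays and 6.17, 7.16 and 6.52 on the WT arrays. The differences were below 0 for 4 of 4 erythroid markers (median -0.70), 10 of 10 fibroblast markers (median -0.45) and 5 of 6 islet markers (median -0.42). The share over all genes was 38.3%, and over genes above the median level 50.1%. Limma's unadjusted p was under 0.05, each below 0, for 3 of 6 islet, 2 of 10 fibroblast and 2 of 20 leukocyte markers. This held for 1.19% of all genes. The 2 fibroblast markers were Postn and Thy1, and Thy1 did not follow the list mean on the WT arrays (7.41, 7.23 and 7.32). The islet means were 6.07, 6.44 and 6.33 on the KO arrays and 6.45, 6.85 and 6.79 on the WT arrays. The 6 duct markers had means of 7.12, 7.67 and 7.73 on the KO arrays and 7.30, 7.78 and 7.47 on the WT arrays. The 6 endothelial markers had means of 4.96, 5.54 and 5.56 on the KO arrays and 4.95, 5.74 and 5.34 on the WT arrays, and the median difference was 0.081 for duct and 0.021 for endothelial markers. The part of any of these cells in the cell cycle values was not tested.

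**Figure D4:**
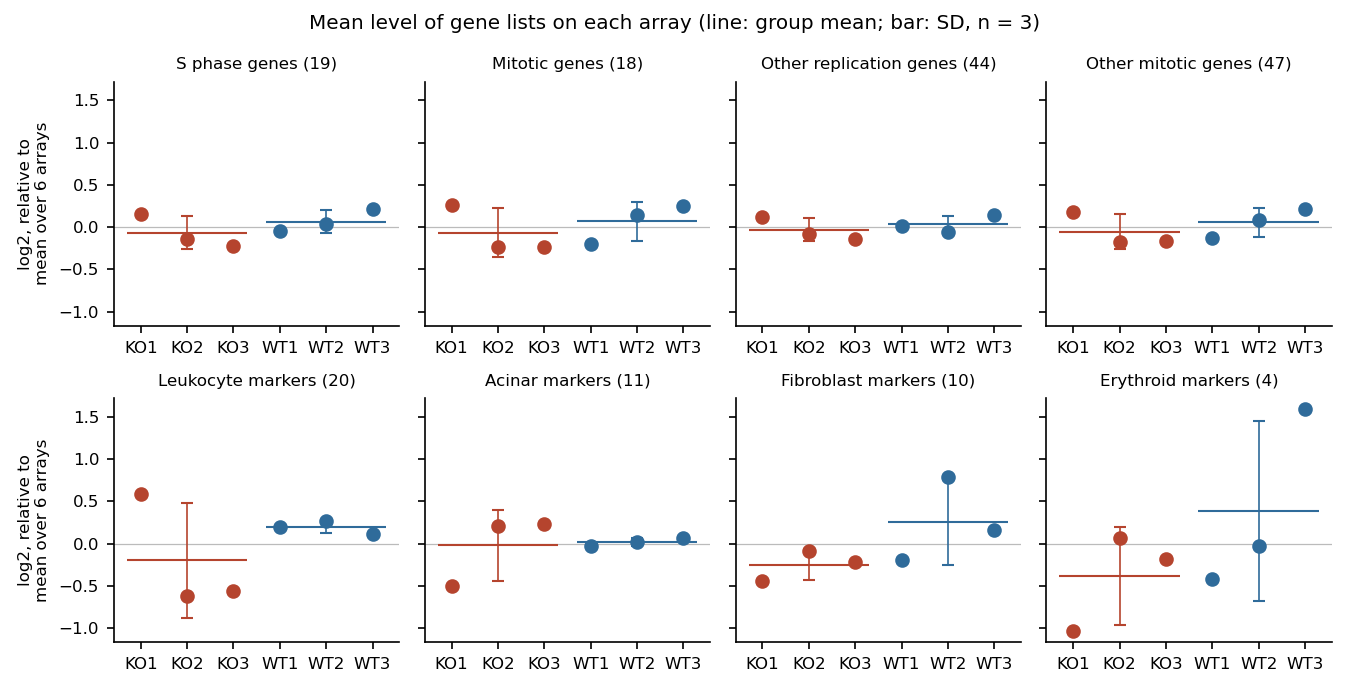
Mean log2 expression of each gene list on each array (points; number of genes in brackets), relative to the mean over the 6 arrays, with KO arrays in red on the left and WT arrays in blue on the right. Lines are group means and bars SD (n = 3). KO array 1 is the top KO array for both cell cycle member lists (6.40 and 6.23) and for leukocyte markers (8.30), and the bottom one for acinar markers (10.34).

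The counts moved with single arrays. Without KO array 1, 36 of 40 members had a difference below 0 and the medians were -0.21 for S phase and -0.26 for mitotic members, against 0.11 over all genes. In that comparison 12 of 40 members had an unadjusted p under 0.05, against 29.3% of all genes, and 0 passed limma's adjusted threshold, where 0.00987% of all genes did. Without KO array 3 the count below 0 was 25 of 40, with 9 of 19 S phase members and a median of 8.5e-05. Without WT array 3 the medians were -0.033 for S phase and -0.062 for mitotic members, and without WT array 1 they were -0.21 and -0.29. Without KO array 2 the mitotic median was -0.073.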

How the data were processed

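Biotin-labelled RNA of GFP-sorted pancreas cells (PicoPure isolation, per the labels' protocols) was hybridised to 1 array per sample. The values deposited by the authors are log2 expression, and per the submitters' processing notes RMA and Partek were used, with versions not given in the sources used here. RMA compresses dim values. Of 115830 rows, 25539 named 1 gene symbol, which gave 20259 genes. The table holds neither detection calls nor scan dates, so neither dimness nor batch was tested, and 3 arrays per group limit precision.

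R 4.3.3 with limma 3.58.1 fitted KO minus WT across the whole gene table (lmFit, eBayes, no block, no filter), with Benjamini-Hochberg adjustment and a threshold of 0.05. Single values had a two-sided exact permutation test (smallest p 0.1). The fit was tested on simulated data. Medians and counts over members have no test. Members and lists were chosen with earlier results of these data known. Values on every array are given for the 5 S phase and 5 mitotic members of smallest p, the D cyclins, Mki67, Top2a, Pcna, Mcm2 and Cdk1, and up to 3 genes per direction are named from each further list. Rrm2, Bhlha15, Ptprc, Xist and the other single cell type markers were added after their values were seen. The rule also set Ccnb1, which was not measured here. Promoters are from RefSeq (GRCm38.p6) and were scanned with Python 3.11.15. The fit was repeated with changed normalization, filter, row choice, variance model and array weights, with replicate number as a block, and leaving out single arrays.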

Additional observations from a re-analysis of the deposited data

How the results depend on the processing

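The 0 adjusted calls over all genes held in every alternative with all 6 arrays except array weights, which gave 4797, and in every fit that left out an array except that without KO array 1, which gave 2 (range 0 to 2). Array weights ran from 0.142 for KO array 1 to 8.57 for KO array 2, and their estimation stopped before it converged. With them 9 of 40 members were called (22.5%), against 23.7% of all genes: Mcm4, Mcm6, Mcm7, Pcna, Rrm1, Bub1b, Top2a, Mki67 and Kif11, each with a difference below 0. With unequal weights the S phase and mitotic medians were -0.16 and -0.25. Over the other alternatives with all 6 arrays the S phase median ran from -0.14 to -0.11 and the mitotic median from -0.16 to -0.12. A further quantile normalization changed the unadjusted split over all genes to 335 lower and 357 higher, against 241 lower and 467 higher, with 34 of 40 members below 0 in both. The replicate block gave the same estimates and 0 calls. Same-numbered arrays correlated at 0.041, 0.14 and -0.15 in their deviations from the group means, across genes. Arrays of different number correlated at -0.18 to 0.15. With so few arrays per group the deviations are tied to one another, so these values cannot decide whether the numbers pair the samples.

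Single members near 0 turned sign. After a further quantile normalization Cdt1 was 0.00059 and Ccne1 -0.018. With arrays shifted to 1 median Ccne1 was -0.018, E2f1 -0.0034 and Aurkb -0.013. With array weights Rrm2 was 0.47, Tk1 -0.13, E2f1 -0.043, Aurkb -0.23 and Plk1 -0.099. Leaving out 1 array turned the sign of 18 members at least once, with these ranges: Mcm3 (-0.36 to 0.026), Mcm5 (-0.35 to 8.5e-05), Cdt1 (-0.16 to 0.11), Cdc45 (-0.14 to 0.061), Gins2 (-0.087 to 0.057), Rrm2 (-0.33 to 0.20), Tk1 (-0.018 to 0.24), Ccne1 (-0.072 to 0.098), Cdk2 (-0.095 to 0.048), E2f1 (-0.0097 to 0.064), Ccna2 (-0.38 to 0.084), Bub1 (-0.29 to 0.072), Aurkb (-0.16 to 0.15), Plk1 (-0.083 to 0.20), Birc5 (-0.29 to 0.015), Kif20a (-0.11 to 0.11), Cenpf (-0.24 to 0.031) and Ccnd2 (-0.15 to 0.0013). The other 22 members kept their sign in all 6 such fits. The cause was not tested.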
